A study of Mus musculus with 8 samples.

Results

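The genes described here are 10 markers of the epicardium, chosen by name: Wt1, Tcf21, Bnc1, Bnc2, Upk3b, Upk1b, Msln, Gpm6a, Sema3e and Tgm2. These genes were named with earlier results of these data known, so counts over them describe the list and do not test it. They are 10 of the 20701 gene symbols in the deposited table, where a gene with several transcripts is represented by its most abundant one. All 10 passed the filter on low counts, which left 13769 genes. RNA was sequenced from the outflow tract and right ventricle (OFT/RV) dissected from single C57BL/6 mouse embryos at E10.5. The 4 control embryos (CTRL) were labelled wild type. The 4 Isl1_hypo embryos carried the hypomorphic Isl1 f;neo/f;neo alleles, which are present in every cell of the embryo, so the genotype is not restricted to the heart. The libraries held 29748458 to 46678973 counts in CTRL and 18422245 to 33050298 in Isl1_hypo.

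The epicardium is the mesothelial layer that covers the heart. Its precursors arise in the proepicardium, beside the venous pole, and spread over the myocardium, reaching the ventricles before the outflow tract. Epicardial cells later give rise to fibroblasts and vascular smooth muscle, and they exchange growth signals with the myocardium beneath. In RNA of a whole tissue, fewer cells of a type and less RNA per cell cannot be told apart, so the levels below describe the dissected piece and not the epicardial cell.

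The label of the tissue was checked against markers. The defining cardiomyocyte genes were high in every library, with 40735 to 51090 CPM (counts scaled to the size of each library) summed over 10 genes. Of 7 genes of the liver and septum transversum, which lie beside the proepicardium, the liver genes Afp and Alb were at most 0.256 CPM in any library, Apoa1 reached 0.447 CPM and Ttr was at 0.590 to 0.978 CPM. The sum over the 7 genes was 1.47 to 5.71 CPM in CTRL and 6.93 to 9.96 CPM in Isl1_hypo, most of it from Lhx9 in 7 of the 8 libraries, and its part in the epicardial levels was not tested. Of the 10 epicardial genes, 7 (Wt1, Tcf21, Upk3b, Upk1b, Tgm2, Gpm6a and Bnc1) had at least 0.832 CPM in every library. Msln and Bnc2 did not exceed 3.37 CPM in any library, and Msln had 0 counts in CTRL replicate 3. The targeted gene Isl1 was at 47.2 ± 13.3 CPM in CTRL and at 9.67 ± 2.83 CPM in Isl1_hypo (SD, n = 4). Its log2 fold change was −2.29 (SE 0.256), with an adjusted p of 0.0077 in the quasi-likelihood test of edgeR.

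The upstream sequences of the marker genes are shown because several of the genes stood high and low in the same embryos. RefSeq starts (GRCm38.p6) were matched for 6 of the 10 genes, namely Upk3b, Gpm6a, Tcf21, Bnc1, Bnc2 and Sema3e, with 7 starts in all. The 250 bases before the start were searched on both strands for the TEAD motif CATTCC (reverse GGAATG), the GATA motif AGATAA (reverse TTATCT) and the E-box CAGCTG. No match overlapped another. The 3 windows that hold a match are given 5′ to 3′ on the strand of the gene, with the match in capitals. They are Upk3b (chr5:136038246-136038495, plus strand), the upstream start of Gpm6a (chr8:54779184-54779433, plus strand) and Tcf21 (chr10:22820144-22820393, minus strand).
Upk3b: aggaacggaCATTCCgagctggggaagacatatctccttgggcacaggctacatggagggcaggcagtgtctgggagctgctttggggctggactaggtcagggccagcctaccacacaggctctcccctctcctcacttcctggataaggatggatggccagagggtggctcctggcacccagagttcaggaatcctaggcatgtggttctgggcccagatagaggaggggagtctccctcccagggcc
Gpm6a: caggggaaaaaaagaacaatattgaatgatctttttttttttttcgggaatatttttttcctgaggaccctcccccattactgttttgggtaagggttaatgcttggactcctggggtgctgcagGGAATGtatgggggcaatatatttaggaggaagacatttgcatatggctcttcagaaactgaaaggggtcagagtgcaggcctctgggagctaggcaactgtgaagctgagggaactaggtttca
Tcf21: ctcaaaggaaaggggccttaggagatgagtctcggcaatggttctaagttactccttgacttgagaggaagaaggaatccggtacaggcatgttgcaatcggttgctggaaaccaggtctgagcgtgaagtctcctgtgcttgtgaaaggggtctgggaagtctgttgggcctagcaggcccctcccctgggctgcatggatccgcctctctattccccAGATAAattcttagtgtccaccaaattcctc
The TEAD letters begin 241 bases before the start of Upk3b and 125 bases before that of Gpm6a. They were found in 2 of the 7 windows, and in 12.6% of 32851 mouse windows of the same length. The GATA letters begin 31 bases before the start of Tcf21, the only one of the 7 windows to hold them, against 9.99% of all windows. The E-box was in 0 of the 7 windows and in 13% of all. The windows also differ in composition, from 83.6% G and C for Bnc1 to 33.6% for the other start of Gpm6a. Upk3b had 60.8%, the upstream start of Gpm6a 44.4% and Bnc2 35.6%, against a median of 52.4% over all windows. A match of letters is a description and does not show that a factor binds there.

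All 10 marker genes had a higher mean in Isl1_hypo than in CTRL, with a median log2 fold change of 1.29, against 0.01 for all genes tested. None of them passed an adjusted p of 0.05 by edgeR, a threshold met by 0.269% of all genes. At an unadjusted p under 0.05, 7 of the 10 passed, and the 7 were all higher in Isl1_hypo. Of all genes tested 11.9% passed this threshold in either direction and 5.69% on the higher side. The libraries of the 2 groups did not overlap for 6 of the 10, again with Isl1_hypo higher, against 8.5% of all genes in either direction and 4.06% with Isl1_hypo higher. With DESeq2 in place of edgeR, 3 of the 10 had an adjusted p under 0.05, which were Wt1 (0.0429), Tcf21 (0.0498) and Gpm6a (0.0498), where 2.32% of all genes did. In limma-voom with sample weights 0 of the 10 passed, where 0.973% of all genes did. In that fit 8 had an unadjusted p under 0.05, where 13.7% of all genes did. Its weights were lowest for Isl1_hypo 3 (0.228) and CTRL 1 (0.634), against 1.04 to 1.66 for the other libraries. CTRL 1 and Isl1_hypo 3 were the embryos that most often stood at the ends of the range. Without this pair all 10 genes were still higher in Isl1_hypo and 8 had an unadjusted p under 0.05, against 11.6% of all genes in that fit, and their median log2 fold change was 0.84.

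**Figure D1:**
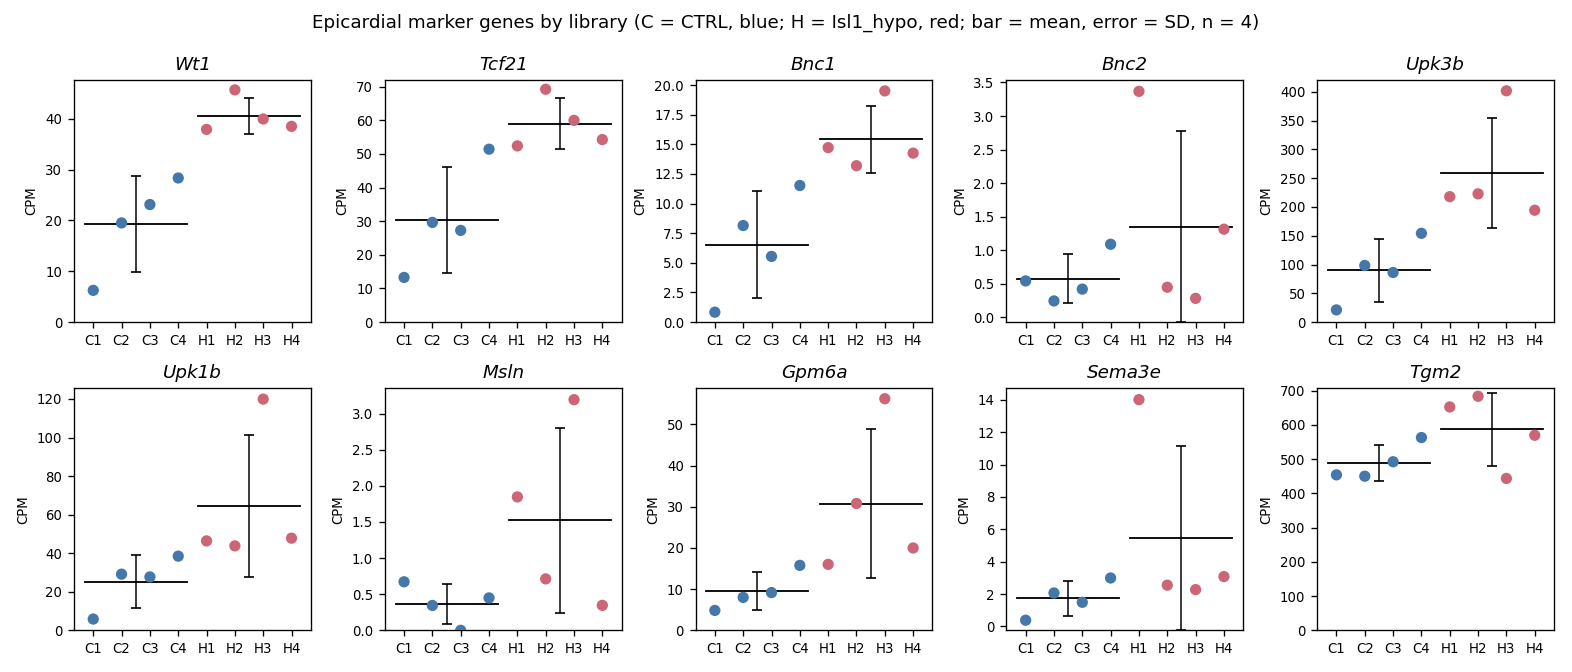
Level of each of the 10 epicardial marker genes in CPM (linear axes, one scale per gene) in the 4 CTRL libraries (C1 to C4, blue) and the 4 Isl1_hypo libraries (H1 to H4, red), with horizontal bars for the group mean and error bars for the SD. CTRL 1 is the lowest of the 8 libraries for Wt1, Tcf21, Bnc1, Upk3b, Upk1b, Gpm6a and Sema3e, and single Isl1_hypo libraries stand high for Upk1b (120 CPM in H3) and Sema3e (14 CPM in H1).

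The transcription factors were examined first. Wt1 (chromosome 2, 104966686 to 105013773 on the plus strand of mm9) encodes a zinc finger factor that is needed for epicardial cells to form mesenchyme. The CTRL embryos, in the order of their replicate numbers as throughout, gave 6.24, 19.5, 23.1 and 28.3 CPM, and the Isl1_hypo embryos 37.9, 45.7, 40.0 and 38.5 CPM. The 4 Isl1_hypo embryos lay close together and above every CTRL embryo, while the CTRL embryos were spread widely. The means were 19.3 ± 9.43 and 40.5 ± 3.55 CPM (SD, n = 4). On the log2 scale the fold change was 1.07 (SE 0.337), and edgeR gave an adjusted p of 0.268.

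Tcf21 (chromosome 10, 22537085 to 22539934, minus strand) is a basic helix-loop-helix factor of the proepicardium and of the fibroblast lineage. It was at 13.3, 29.6, 27.3 and 51.4 CPM in CTRL and at 52.4, 69.3, 60.0 and 54.3 CPM in Isl1_hypo. The groups did not overlap, but CTRL 4 and Isl1_hypo 1 differed by only about 1 CPM. The log2 fold change was 0.95 (SE 0.308), and edgeR gave an adjusted p of 0.282. Tcf21 is also a gene of pharyngeal muscle precursors, which border on the outflow tract. Myod1, Msc and Myf5, defining genes of that lineage, were at most 0.235 CPM in every library.

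Bnc1 (chromosome 7, 89111558 to 89137185, minus strand) and Bnc2 (chromosome 4, 83918446 to 84320990, minus strand) encode the basonuclins, a pair of zinc finger proteins of mesothelium and other epithelia. Bnc1 was at 0.832, 8.14, 5.54 and 11.5 CPM in CTRL and at 14.7, 13.2, 19.5 and 14.3 CPM in Isl1_hypo. The groups did not overlap, and CTRL 1 lay far below the other control embryos. Its log2 fold change was 1.24 (SE 0.521), with an adjusted p of 0.379 in edgeR, and it was 0.74 without CTRL 1 and Isl1_hypo 3. The exons of Bnc1 share 105 bases with the pseudogene 4833418N17Rik on the opposite strand, whose reads cannot be separated because counting ignored strand.

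Bnc2 was much lower, at 0.544, 0.246, 0.422 and 1.09 CPM in CTRL and 3.37, 0.450, 0.284 and 1.31 CPM in Isl1_hypo. The groups overlapped, and the mean of Isl1_hypo was carried by replicate 1. The log2 fold change was 1.2 (SE 0.803) with an adjusted p of 0.574 in edgeR, and it was 0.24 without Isl1_hypo replicate 1.

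The surface proteins of the mesothelium spanned a wider range. Upk3b (chromosome 5, 136514366 to 136521173, plus strand) encodes a uroplakin, a membrane protein shared by the mesothelium and the lining of the bladder. It was at 21.1, 98.3, 86.1 and 154 CPM in CTRL and at 218, 223, 402 and 194 CPM in Isl1_hypo. Every Isl1_hypo embryo exceeded every CTRL embryo, and the lowest and highest of the 8 differed by 19.0-fold. The means were 90.0 ± 54.6 and 259 ± 95.9 CPM (SD, n = 4), and the log2 fold change was 1.53 (SE 0.449, adjusted p 0.224, edgeR). Without CTRL 1 and Isl1_hypo 3 it was 0.91.

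Upk1b (chromosome 16, 38773297 to 38800316, minus strand), the tetraspanin that partners the uroplakins, was at 5.85, 29.1, 27.7 and 38.5 CPM in CTRL. In Isl1_hypo it was at 46.4, 43.8, 120 and 47.8 CPM, so that replicate 3 stood apart from 3 nearly equal embryos. The groups did not overlap, with a log2 fold change of 1.35 (SE 0.482) and an adjusted p of 0.304 in edgeR. The log2 fold change was 0.86 without Isl1_hypo replicate 3 and 0.53 when CTRL 1 was left out as well.

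Gpm6a (chromosome 8, 56040081 to 56146231, plus strand) encodes a membrane glycoprotein best known from neurons. It was at 4.83, 8.0, 9.16 and 15.8 CPM in CTRL and at 16.0, 30.8, 56.2 and 20 CPM in Isl1_hypo. The groups met almost exactly at CTRL 4 and Isl1_hypo 1 without overlapping. Among the 10 genes its adjusted p was the lowest in edgeR, at 0.151, with a log2 fold change of 1.70 (SE 0.416). Without CTRL 1 and Isl1_hypo 3 the log2 fold change was 1.02.

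Msln (chromosome 17, 25885559 to 25891272, minus strand), which encodes the mesothelial surface glycoprotein mesothelin, was near the detection limit. The level of 3 counts corresponds to 0.0641 to 0.163 CPM in these libraries. Msln was at 0.672, 0.344, 0 and 0.449 CPM in CTRL and at 1.85, 0.712, 3.19 and 0.346 CPM in Isl1_hypo. The groups overlapped, and the log2 fold change of 2.06 had an SE of 0.967 and an adjusted p of 0.436 in edgeR. It was 1.38 without Isl1_hypo replicate 3.

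Sema3e and Tgm2 are a secreted guidance cue and an enzyme. Sema3e (chromosome 5, 14025276 to 14256689, plus strand), a class 3 semaphorin that signals to endothelial cells through plexin D1, was at 0.384, 2.07, 1.49 and 2.99 CPM in CTRL. It was at 14, 2.55, 2.28 and 3.08 CPM in Isl1_hypo, where replicates 2 to 4 lay within or just above the CTRL range. The log2 fold change was 1.64 (SE 0.688), with an adjusted p of 0.379 in edgeR, but it was 0.60 without Isl1_hypo replicate 1.

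Isl1_hypo replicate 1 also carried epithelial transcripts. Over 8 epithelial genes the summed level was 77.3 CPM in that library, 1.2 to 3.74 CPM in the other Isl1_hypo libraries and 0.352 to 1.73 CPM in CTRL. Cldn6 was at 38.5 CPM and Cdh1 at 15.3 CPM in Isl1_hypo replicate 1, and neither exceeded 0.311 CPM in any other library. Esrp1 was at 0 in the 4 CTRL libraries and at 6.03 CPM in Isl1_hypo replicate 1. Krt14 and Trp63, also among the 8, were not highest there. Krt14 was at 0.326 CPM in Isl1_hypo replicate 1 and at 0.712 CPM in replicate 2. Trp63 was at 0.380 CPM in Isl1_hypo replicate 1 and at 0.692 CPM in replicate 4. Which epithelium the transcripts came from was not tested. Sema3e and Bnc2 were the marker genes that were highest in this library, and the part of the epithelial tissue in their levels was not tested.

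Tgm2 (chromosome 2, 157942138 to 157972172, minus strand) encodes transglutaminase 2, a protein cross-linking enzyme that many tissues express. It was at 454, 450, 493 and 563 CPM in CTRL and at 653, 684, 444 and 570 CPM in Isl1_hypo. The groups overlapped, with Isl1_hypo replicate 3 the lowest of the 8. The log2 fold change was 0.26 (SE 0.140), with an adjusted p of 0.492 in edgeR. Its exons share 370 bases with Rprd1b and 633 bases with a processed transcript, both on the opposite strand, and their reads are not separated.

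Levels can be compared between genes only per length of transcript. In CTRL the mean was 139 CPM per kb for Tgm2, 44.4 for Upk3b, 24.8 for Tcf21, 14.4 for Upk1b, 6.27 for Wt1, 3.19 for Gpm6a and 1.40 for Bnc1. Sema3e, Msln and Bnc2 followed at 0.253, 0.175 and 0.0893 CPM per kb. In Isl1_hypo the first 7 genes kept this order, with Upk3b at 128 and Tgm2 at 166 CPM per kb.

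**Figure D2:**
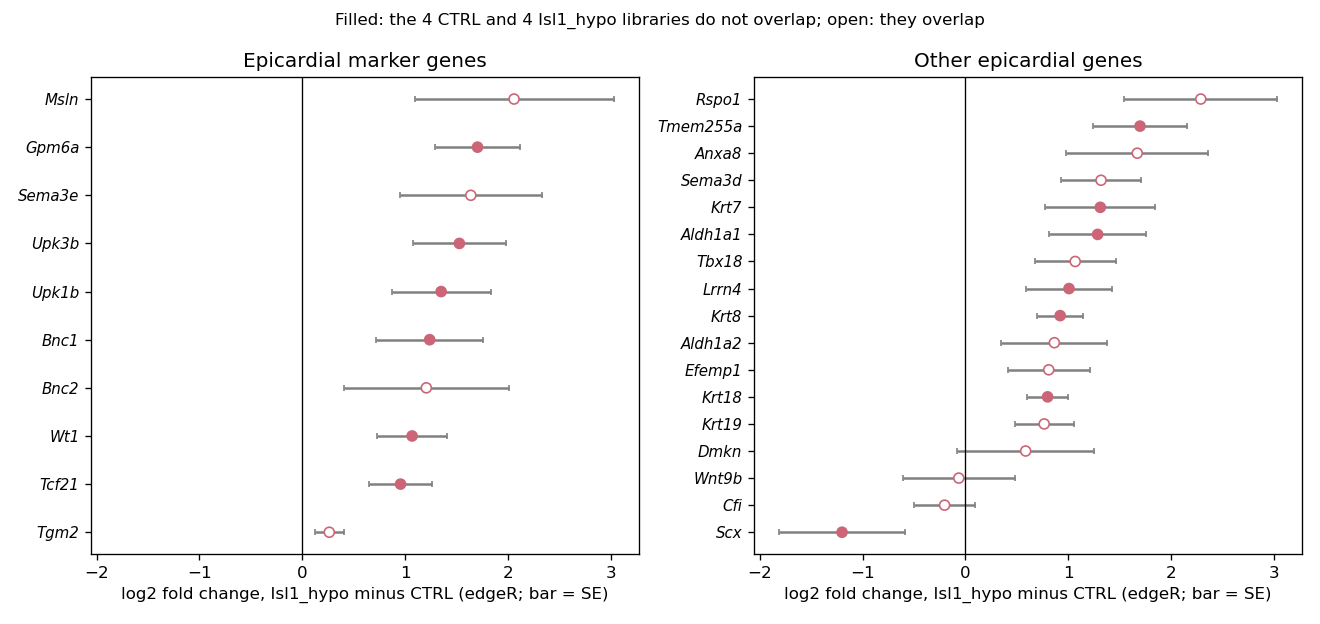
Log2 fold change of Isl1_hypo minus CTRL for the 10 epicardial marker genes and for 17 other epicardial genes, with bars for the SE (edgeR, n = 4 per group). All 10 marker genes lie above 0, 6 of them filled because their groups do not overlap, and of the other 17 genes 14 lie above 0 and Scx is the only filled one below it.

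The sum over the marker genes gives 1 value per embryo. It was 508, 646, 673 and 868 CPM in CTRL and 1057, 1113, 1147 and 944 CPM in Isl1_hypo, with means of 674 ± 148 and 1065 ± 89.1 CPM (SD, n = 4). In the mean of the 8 libraries Tgm2 made up 62.0% of this sum, followed by Upk3b with 20.1%. The share varied between embryos. Tgm2 held 454 of 508 CPM in CTRL 1 and 444 of 1147 CPM in Isl1_hypo 3, where Upk3b held 402 CPM. Over the 9 genes other than Tgm2 the sum was 53.8, 195, 181 and 304 CPM in CTRL and 405, 429, 703 and 374 CPM in Isl1_hypo. Its mean was 184 ± 103 CPM in CTRL and 478 ± 152 CPM in Isl1_hypo, a log2 ratio of 1.38. The highest and lowest embryo differed by 5.66-fold within CTRL and by 1.88-fold within Isl1_hypo. The CTRL value rests on CTRL 1, at 53.8 CPM, where the other CTRL embryos lay between 181 and 304 CPM.

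The spread among embryos of one group was large for most of these genes. The SD of log2 CPM within groups was 0.69 for Wt1, 0.94 for Upk3b and 0.22 for Tgm2, against a median of 0.26 over all genes tested. Compared with genes whose mean CPM lay within 2-fold of its own, the SD of Upk3b was at percentile 99.9, that of Upk1b at 99.7, Bnc1 at 99.3, Wt1 and Gpm6a at 98.8 and Tcf21 at 98.6. Tgm2 was at percentile 75.8 and Bnc2 at 70.9.

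The marker genes could also be set against each other within a library, where differences in depth cancel. There were 1.18 to 2.13 counts of Tcf21 for each count of Wt1 over the 8 embryos, and 0.714 to 1.15 counts of Tbx18, another epicardial factor gene. The Wt1 level itself ranged over 7.32-fold. Of the 6 genes set against Wt1, Bnc1 had the widest range, from 0.133 counts in CTRL 1 to 0.488 in Isl1_hypo 3. The uroplakins ranged widely too. There were 3.39, 5.04, 3.73 and 5.44 counts of Upk3b for each count of Wt1 in CTRL and 5.75, 4.88, 10.1 and 5.05 in Isl1_hypo. The ratio of Upk1b to Wt1 was 3.0 in Isl1_hypo replicate 3 and 0.938 to 1.49 in the other 7 embryos. Gpm6a behaved alike, with a ratio to Wt1 of 1.41 in that embryo and 0.396 to 0.774 in the others. Upk3b and Upk1b kept a ratio of 3.11 to 5.09 to each other.

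**Figure D3:**
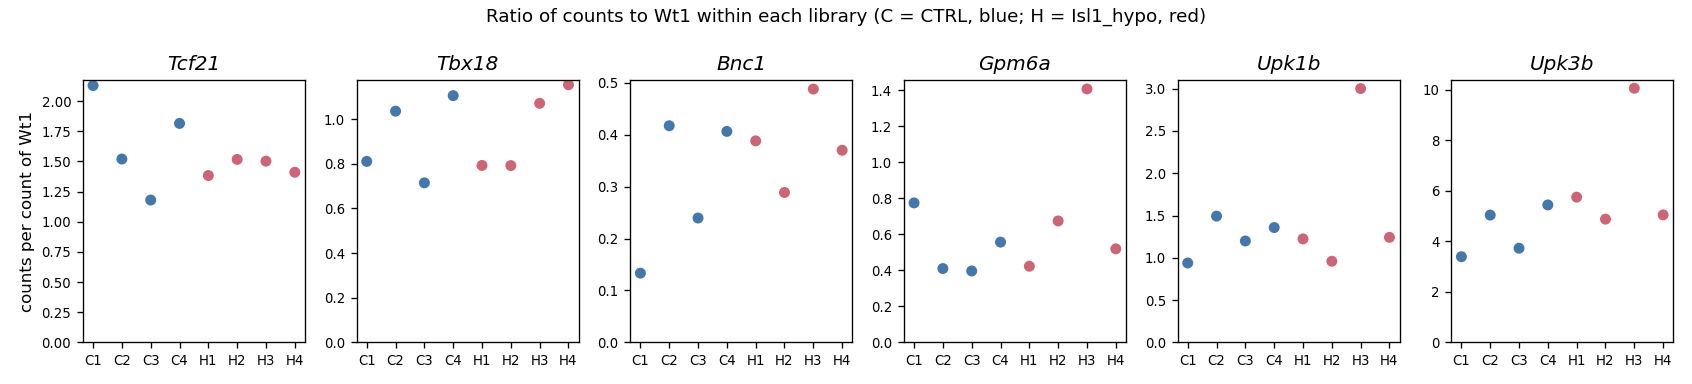
Counts of 6 epicardial genes for each count of Wt1 in the same library (linear axes from 0), for CTRL 1 to 4 (C1 to C4, blue) and Isl1_hypo 1 to 4 (H1 to H4, red). The ratios of Tcf21 and Tbx18 stay between 0.714 and 2.13 in the 8 libraries, while those of Bnc1, Gpm6a, Upk1b and Upk3b are highest in H3 (0.488, 1.41, 3.0 and 10.1).

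The marker genes were also set against the myocardium. There were 2.37, 10.2, 14.9 and 16.3 counts of Wt1 for each 1000 counts of Tnnt2, which encodes cardiac troponin T, in CTRL. In Isl1_hypo there were 22.7, 27.4, 20.2 and 24.4. The ratios did not overlap between the groups. Tnnt2 itself differed by −0.18 on the log2 scale (SE 0.156), with an adjusted p of 0.671 in edgeR.

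Other genes of the epicardium, outside the 10, were read from a list of 20. Of these, 19 were in the table and 17 passed the filter, which removed C3 and Upk2. Their median log2 fold change was 0.92, with 14 higher and 3 lower. In edgeR 0 of them had an adjusted p under 0.05, 2 did in DESeq2, where 2.32% of all genes did, and 1 did in limma-voom, where 0.973% of all genes did. Of the 17, 11 had an unadjusted p under 0.05 in edgeR, each of them higher in Isl1_hypo, where 5.69% of all genes passed on the higher side. Without CTRL 1 and Isl1_hypo 3, 18 of the genes were tested and 8 had an unadjusted p under 0.05, all of them higher, where 5.6% of all genes passed on the higher side. The groups did not overlap for 7 of the 17, against 8.5% of all genes, and in 1 of these 7, Scx, Isl1_hypo was the lower group.

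Among these genes were the enzymes of retinoic acid synthesis, a signal that the epicardium makes for the myocardium. Aldh1a1 was at 2.66, 15.3, 20.2 and 27.6 CPM in CTRL and at 37.1, 48.4, 37.7 and 37.7 CPM in Isl1_hypo, without overlap. Its log2 fold change was 1.28 (SE 0.472, adjusted p 0.313, edgeR). Aldh1a2 was at 2.62, 22.5, 21.9 and 37.7 CPM in CTRL and at 33.2, 46.2, 41.3 and 34.0 CPM in Isl1_hypo, and its groups overlapped (log2 fold change 0.86, adjusted p 0.533, edgeR). Both enzymes were lowest in CTRL 1, as Wt1 was.

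Tbx18, a T-box factor of the proepicardium, was at 5.05, 20.2, 16.5 and 31.3 CPM in CTRL and at 30.0, 36.2, 42.8 and 44.4 CPM in Isl1_hypo. The groups overlapped by CTRL 4 alone, and the log2 fold change was 1.07 (SE 0.393, adjusted p 0.314, edgeR). The simple-epithelium keratins Krt8, Krt18, Krt7 and Krt19 had log2 fold changes of 0.92, 0.80, 1.31 and 0.77. Krt8 was at 92.7 CPM and Krt18 at 140 CPM in Isl1_hypo replicate 1, the library with the epithelial transcripts, and other epithelia also express both. Tmem255a, a gene of a little-studied membrane protein, was at 5.63 to 43.6 CPM in CTRL and at 51.1 to 91.0 CPM in Isl1_hypo, without overlap. It had a log2 fold change of 1.70, and edgeR gave an adjusted p of 0.195. The 3 genes that were lower in Isl1_hypo were Scx, Cfi and Wnt9b, with log2 fold changes of −1.20, −0.20 and −0.06. Scx, which encodes the tendon and progenitor factor scleraxis, was at 0.672 to 1.41 CPM in CTRL and 0.126 to 0.554 CPM in Isl1_hypo, on 4 to 66 counts, and edgeR gave it an adjusted p of 0.475.

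Genes with known roles in forming the epicardium and in its signalling were taken from another list of 20, of which 19 were tested. Of these, 9 were higher and 10 lower in Isl1_hypo, with a median log2 fold change of −0.003, and 2 passed an adjusted p of 0.05 in edgeR, against 0.269% of all genes. At an unadjusted p under 0.05, 2 were higher and 2 lower, where 5.69% and 6.17% of all genes were. Bmp4, a ligand that cardiac outflow myocardium secretes, fell in Isl1_hypo, where the 4 embryos lay between 94.4 and 130 CPM and the CTRL embryos between 209 and 248 CPM. Its log2 fold change was −0.94 (SE 0.120, adjusted p 0.0172, edgeR), and the adjusted p was 0.0626 without CTRL replicate 2 and 0.0733 without CTRL replicate 3. Fgf9, a growth factor made by epicardium and endocardium, rose in Isl1_hypo, where the embryos lay between 8.98 and 12.5 CPM and the CTRL embryos between 2.95 and 5.22 CPM. Its log2 fold change was 1.35 (SE 0.233) and edgeR gave an adjusted p of 0.0425. Its adjusted p was under 0.05 in 1 of the 8 fits that left out a library, the one without Isl1_hypo replicate 3, and 0.0653 to 0.136 in the other 7. It was 0.0674 without CTRL 1 and Isl1_hypo 3, and 0.0556 after thinning every library to the total of the shallowest.

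The adhesion pair that binds epicardium to myocardium did not pass the test. Itga4, the integrin subunit of epicardial cells, was at 83.7, 39.7, 43.6 and 36.2 CPM in CTRL and at 45.2, 48.0, 32.0 and 34.0 CPM in Isl1_hypo (log2 fold change −0.35, adjusted p 0.605, edgeR). Vcam1, its myocardial ligand, was at 80.8 to 105 CPM and at 85.9 to 122 CPM in Isl1_hypo, differing by 0.17 on the log2 scale (adjusted p 0.628 by edgeR). Zfpm2, a partner of GATA4 whose loss disturbs the coronary vessels, was at 16.2 to 20.9 CPM in CTRL and 21.5 to 27.6 CPM in Isl1_hypo, without overlap (log2 fold change 0.47, adjusted p 0.237, edgeR). Snai1, a factor of epithelial-mesenchymal transition, was at 34.8 to 48.0 CPM in CTRL and at 10.3 to 29.3 CPM in Isl1_hypo (log2 fold change −0.81, adjusted p 0.283, edgeR).

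Markers of the other cells of the tissue were read beside the epicardial genes. The median log2 fold change was −0.14 for the 10 cardiomyocyte genes and −0.19 for the 8 endothelial genes. In these lists 3 and 2 genes had an unadjusted p under 0.05, each of them lower in Isl1_hypo, where 6.17% of all genes passed on the lower side, and 0 had an adjusted p under 0.05 in edgeR. Ttn and Myh7, which encode sarcomere proteins, had log2 fold changes of −0.90 and −0.49, and the endothelial adhesion genes Pecam1 and Cdh5 had −0.58 and −0.54, without overlap between the groups for any of these 4. The part of these cells in the epicardial comparison was not tested. The 8 mesenchyme genes had a median of −0.32, with 2 higher and 2 lower at an unadjusted p under 0.05, where 11.9% of all genes passed. Twist1 and Sox9 were the lower pair, with log2 fold changes of −0.57 and −0.38. Lum, which encodes the matrix proteoglycan lumican, was at 196 CPM in Isl1_hypo replicate 1, the library with the epithelial transcripts, and at 9.27 to 24.5 CPM in the other Isl1_hypo embryos and 7.92 to 24.6 CPM in CTRL (log2 fold change 2.14, adjusted p 0.348, edgeR). Dcn, which encodes the related proteoglycan decorin, was at 8.51 to 41.3 CPM in CTRL and at 60.0 to 119 CPM in Isl1_hypo (log2 fold change 1.89, adjusted p 0.0727, edgeR). Lhx9, a homeobox gene on the list of the septum transversum, was at 0.576 to 4.21 CPM in CTRL and at 5.81 to 9.01 CPM in Isl1_hypo.

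The erythroid genes moved with the epicardial ones from library to library in part. All 8 were higher in Isl1_hypo, their median log2 fold change was 1.69, and all 8 had an unadjusted p under 0.05, against 5.69% of all genes on the higher side. Of these genes, 1 (Epb42) had an adjusted p under 0.05 in edgeR, against 0.269% of all genes. Summed over the 8 genes, the level was 1924, 2542, 4449 and 11237 CPM in CTRL and 17728, 11255, 23349 and 14469 CPM in Isl1_hypo. CTRL 1 was the lowest and Isl1_hypo 3 the highest library for this sum, as they were for the 9 epicardial genes other than Tgm2. The order in between differed. Isl1_hypo 2 was the lowest Isl1_hypo library for the erythroid sum. For the 9 epicardial genes it exceeded Isl1_hypo 1 and 4, with 429 against 405 and 374 CPM. The part of blood RNA in the epicardial comparison was not tested.

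**Figure D4:**
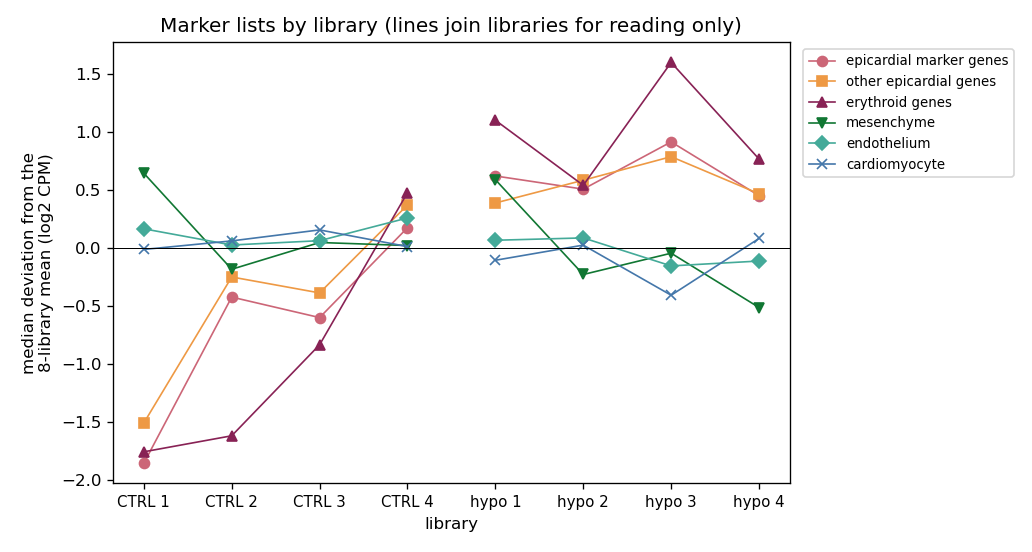
Median over each marker list of the deviation of log2 CPM from the mean of the 8 libraries, for each CTRL and Isl1_hypo library. The epicardial marker genes range from −1.86 in CTRL 1 to 0.91 in hypo 3 and the erythroid genes from −1.76 to 1.60 between the same libraries, while the cardiomyocyte genes stay between −0.41 and 0.15.

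To find genes that varied like the epicardial markers within groups, each gene was taken as its deviation from its group mean, and correlated with the mean deviation of the 10 genes over the 8 libraries. These values share the libraries and rest largely on CTRL 1, at −0.97, and CTRL 4, at 0.88, while the other 6 lay between −0.28 and 0.29. Among genes of at least 5 CPM, Dcn was the most alike with a Pearson r of 0.988, followed by Ebpl (0.972), Vkorc1 (0.970), Nhej1 (0.966), Cox16 (0.965) and Dpm3 (0.960). Apart from Dcn, these genes had log2 fold changes between the groups of −0.19 to 0.18. Of the 17 other epicardial genes 7 had an r above 0.8, with a median of 0.757. Of the 8 erythroid genes 2 had an r above 0.8, with a median of 0.773. Over 10737 genes of at least 5 CPM outside the markers the median was −0.024, and 2.47% had an r above 0.8.

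Each marker gene was set against the mean of the other 9 in the same way. The r was 0.873 for Upk3b, 0.864 for Bnc1, 0.855 for Tcf21, 0.782 for Wt1, 0.764 for Upk1b, 0.683 for Sema3e and 0.529 for Gpm6a. It was 0.208 for Tgm2, 0.026 for Bnc2 and −0.104 for Msln. The last 3 genes were thus those that followed the other markers least from embryo to embryo, and Bnc2 and Msln were also the least abundant.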

How the data were processed

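Polyadenylated RNA of 8 single embryos was sequenced on BGISEQ-500. According to the labels and the study's methods, the authors aligned reads to mm9 with STAR and counted exon reads per RefSeq transcript with HOMER, ignoring strand. These deposited counts are unnormalized whole numbers and were the values analysed. The same table holds RPKM values and the columns of a DESeq2 comparison by the authors (mean level, fold change, standard error, statistic and p-values), none of which was used. Its column of transcript lengths was used for levels per kb.

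Here 1 of 31507 transcripts was kept per symbol (highest mean count). Genes were filtered with filterByExpr, scaled by TMM and tested with the quasi-likelihood test of edgeR 4.0.16 (R 4.3.3) without covariates, with Benjamini-Hochberg adjustment over 13769 genes. CPM use TMM-scaled library sizes, and log2 CPM have a prior count of 2. The SE is the log2 fold change divided by the root of the F statistic. The p-values measure the spread between embryos, and the biological coefficient of variation was 26.4%. The fit was tested on simulated data. No libraries of the same group were duplicates, as the chi-square per degree of freedom was at least 20.4 for each such pair. It was 97.4 to 121 for pairs with Isl1_hypo 3 and 20.4 to 33.0 for the other Isl1_hypo pairs. For pairs with CTRL 1 it was 55.8 to 89.2, and for the other CTRL pairs 32.7 to 52.0. Isl1_hypo 3 thus differed from its group over all genes, and it had the fewest genes detected, 14305, against at least 14935 in each other library. Coordinates and overlaps come from GENCODE on mm9.

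The 10 genes were given by name, and both they and the other lists were chosen with earlier results of these data known. The genes named are the markers, Isl1, members of the lists, and the 6 genes most alike in deviation. The alternatives were RLE and upper quartile scaling, DESeq2 1.42.0, limma-voom with sample weights (limma 3.58.1) and other filters. They also included the longest transcript, a replicate block, thinning, removal of globin genes and leaving out each library. Leaving out CTRL 1 and Isl1_hypo 3 together was added after seeing the data.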

Additional observations from a re-analysis of the deposited data

Results flagged for a closer look

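In each group of 4, the highest and lowest library were compared with the others by Dixon's criterion, which flags about 1 group in 20 by chance. Of 28 groups examined, over Isl1, the 10 marker genes and 3 summary values, 2 were picked out, where 1.4 are expected. Upk1b was at 6.91 log2 CPM in Isl1_hypo replicate 3, while the lowest of this group was at 5.46. The gap to the nearest embryo took up 0.913 of the range of the group. Sema3e was at 3.81 log2 CPM in Isl1_hypo replicate 1, with a gap of 0.835 of the range, and the lowest of the group was at 1.22. The cause of these values was not tested.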

How the results depend on the processing

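The 10 marker genes were higher in Isl1_hypo in each of the 19 alternatives that gave them a value. Between 5 and 8 of them had an unadjusted p under 0.05 (7 in the analysis as reported), and their median log2 fold change ranged from 0.84, without CTRL 1 and Isl1_hypo 3, to 1.69. The log2 ratio of the summed CPM was 0.51 to 0.81, and the median of the other epicardial genes 0.66 to 1.30. A minimum of 10 counts in every library removed Msln and Bnc2, and thinning removed Bnc2, so these gave no value there. The number of genes of the whole table with an adjusted p under 0.05, 37 as reported, was 319 with DESeq2, 134 with limma-voom and 4 to 48 when single libraries were left out (8, 5 and 4 without CTRL 1, 2 and 3, and 12 and 11 without Isl1_hypo 2 and 4). With the replicate block it was 0 in edgeR, with 1582 genes at an unadjusted p under 0.05, and the log2 fold change of Isl1 was −2.29 with an adjusted p of 0.0722. Under this block Bmp4 and Fgf9 had adjusted p-values of 0.0763 and 0.111, the log2 fold change of Bnc2 was 0.79, and 6 marker genes had an unadjusted p under 0.05. Same-numbered embryos did not deviate together (correlations −0.0209 to 0.0219), so the numbers were not taken to pair the embryos. The cause of these differences was not tested. Msln, Bnc2 and Sema3e rest on few counts, which limits their precision.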
